A study of Mus musculus with 9 samples.

Results

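The Notch receptors, ligands and targets described here are 10 mouse genes, namely the receptors Notch1, Notch2 and Notch3, the ligands Dll1, Dll4, Jag1 and Jag2, and the target genes Hes1, Hey1 and Heyl. They were taken by symbol from a table of 22180 named genes, with the brightest probe set that carries a single symbol standing for each gene, and all 10 were measured. The samples were hindlimb skeletal muscle of mice of mixed strain at postnatal days 2, 7 and 14 (P2, P7 and P14), each age on 3 arrays of biological replicates (9 arrays in all). No treatment or genotype is given, and whether a replicate was 1 animal or a pool is not stated, so the p-values below reflect only how far these samples vary, which may in part be technical. Values are log2 intensities on which 1 unit is a doubling, and they compare ages for a gene, not genes with each other.

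Notch signalling passes between touching cells. A Delta-like or Jagged ligand on 1 cell binds a Notch receptor on its neighbour, the receptor is cut by proteases of the ADAM family and by gamma-secretase, and the freed inner part joins the DNA-binding protein Rbpj to switch on genes such as those of the Hes and Hey families, which encode repressors of transcription. In growing muscle the pathway holds back the differentiation of muscle progenitors and keeps satellite cells in reserve, and it also shapes the endothelium and the mural cells of vessels.

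Notch2 was the only member whose level changed by limma with adjustment over all genes, and it is therefore shown with its paralogs by the 250 bases before the RefSeq start of each receptor gene (RefSeq promoter windows, build GRCm38.p6, printed 5′ to 3′ on the strand of the gene). Capitals mark GGGCGG or its reverse complement, a GC box letter pattern. The windows are chr3:98013288-98013537 (plus strand) for Notch2, chr2:26503823-26504072 (minus strand) for Notch1 and chr17:32166891-32167140 (minus strand) for Notch3.
Notch2: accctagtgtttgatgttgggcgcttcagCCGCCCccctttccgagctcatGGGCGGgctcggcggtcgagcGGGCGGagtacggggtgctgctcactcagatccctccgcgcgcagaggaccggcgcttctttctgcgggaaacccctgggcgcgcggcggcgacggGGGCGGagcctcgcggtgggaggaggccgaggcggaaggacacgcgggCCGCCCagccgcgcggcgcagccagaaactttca
Notch1: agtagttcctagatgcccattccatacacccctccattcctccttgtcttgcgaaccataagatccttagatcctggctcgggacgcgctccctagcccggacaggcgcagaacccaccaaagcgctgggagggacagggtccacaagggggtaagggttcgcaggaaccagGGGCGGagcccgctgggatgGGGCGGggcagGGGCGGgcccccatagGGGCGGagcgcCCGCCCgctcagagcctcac
Notch3: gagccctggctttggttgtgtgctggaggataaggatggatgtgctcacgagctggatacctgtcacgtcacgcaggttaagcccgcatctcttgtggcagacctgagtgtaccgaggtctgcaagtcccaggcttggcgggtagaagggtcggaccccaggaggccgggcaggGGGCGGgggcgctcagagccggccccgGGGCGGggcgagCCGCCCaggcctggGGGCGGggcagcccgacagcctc
GGGCGG was matched 5 times in the Notch2 window, 5 times in that of Notch1 and 4 times in that of Notch3, on either strand. Windows were at hand for 7 of the 10 members, the receptors and the ligands, while Hes1, Hey1 and Heyl had none. The pattern was matched in 5 of those 7 members and in 32.7% of all 32851 windows of the same length. The G and C share was 72.0% for Notch2, 66.0% for Notch1 and 68.8% for Notch3, against a median of 52.4% for all windows. TGGGAA, the core of the Rbpj pattern, was in 21.6% of all windows and in 0 of the 8 windows of members, 2 of which belong to Dll1. CACGTG, an E box that Hey proteins bind, was in 6.02% of all windows and also in 0 of these 8. These matches describe the letters of the windows and were not related to any level.

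Every member had a mean above 3.23 at each age, the 95th percentile of 1432 smell and taste receptor genes, which served as a measure of background. The 9-array means ran from 4.07 for Dll1 to 6.20 for Notch2, at the 59.4 and 92.0 percentiles of all genes. The tissue label was borne out by all 6 fibre markers, each above this background, with Acta1, skeletal actin, at 11.9 to 12.1 and Ttn, the giant protein titin, at 11.3 to 11.5 as means of an age. The satellite cell factor Pax7 lay between 4.43 and 4.82. Replicates of an age correlated at 0.953 to 0.984 across genes (genes are not independent replicates), and no arrays were identical. With 3 arrays an age, the array number sets the precision throughout.

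**Figure D1:**
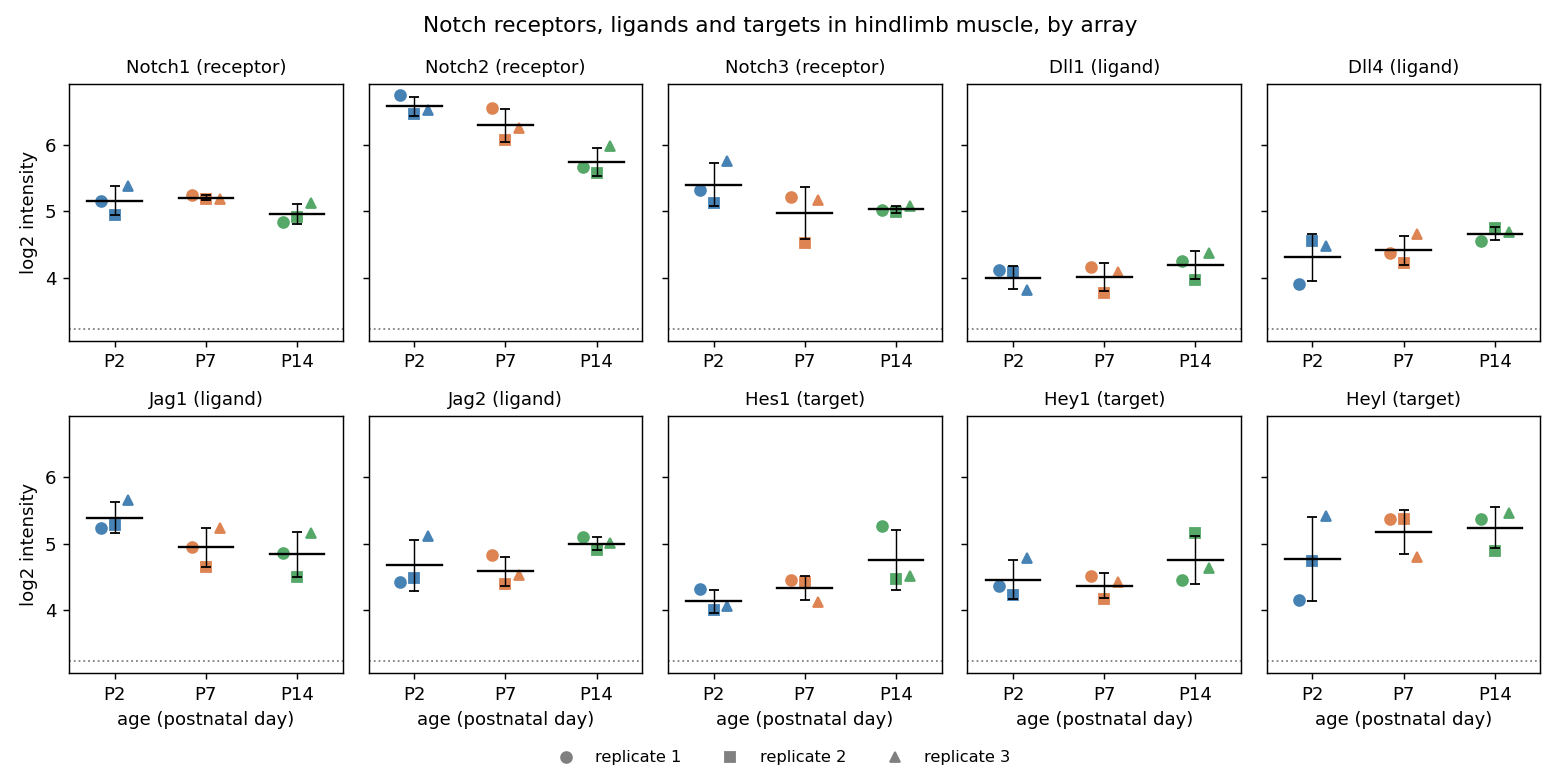
Log2 intensity (y axis) of the 10 members at P2, P7 and P14 (x axis), with 1 point per array, a bar at the mean of 3 arrays and error bars of 1 SD; the dotted line is the background measure of 3.23. The 3 P14 points of Notch2 lie below its 3 P2 points, while in Heyl the P2 points span from 4.16 to 5.42 and enclose most of the later ones.

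Among the receptors, Notch2 fell over the whole span and Notch1 and Notch3 were not called. Notch2, a receptor of satellite cells and of many stromal and vessel cells, had 6.74, 6.45 and 6.52 at P2, 6.55, 6.06 and 6.25 at P7, and 5.66, 5.57 and 5.98 at P14. All P14 arrays were below all P7 and all P2 arrays, while the P7 and P2 arrays overlapped. Notch2 was 1.78-fold lower at P14 than at P2 (5.74 ± 0.22 at P14 and 6.57 ± 0.15 at P2, SD, n = 3 each; log2 change -0.83 ± 0.19, SE; limma adjusted p = 0.00939). The change in each interval was smaller and was not called by limma. For P14 minus P7 it was -0.55 ± 0.19 (95% interval -0.95 to -0.15, unadjusted p = 0.00982, adjusted p = 0.152). For P7 minus P2 it was -0.28 ± 0.19 (95% interval -0.68 to 0.11, unadjusted p = 0.148, adjusted p = 0.556). The difference between the intervals was not called either (-0.27, 95% interval -0.95 to 0.42). The data thus do not place the fall in 1 interval rather than the other. Without P14 replicate 2 the log2 change for P14 minus P2 was -0.75 and the call was lost (adjusted p = 0.0553), and it held without any other array (up to 0.0468).

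Notch1, the receptor best known in satellite cells and endothelium, had the narrowest spread among the members, with a pooled SD of 0.157. Its values were 5.16, 4.94 and 5.38 at P2, 5.25, 5.19 and 5.18 at P7, and 4.83, 4.91 and 5.13 at P14. The P14 arrays were all below the P7 arrays, but they overlapped with P2, and the log2 change of -0.20 for P14 minus P2 had a 95% interval of -0.57 to 0.16 (limma adjusted p = 0.523). Notch3, a receptor of pericytes and vascular smooth muscle, had 5.32, 5.13 and 5.75 at P2, 5.22, 4.53 and 5.17 at P7, and 5.01, 4.99 and 5.08 at P14. Its P14 arrays lay within 0.10 of each other and just under the lowest P2 array, and its change of -0.37 (95% interval -0.83 to 0.09) was not called (adjusted p = 0.317).

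A call for Notch2 without a call for its paralogs does not show that they differ, so the log2 gap between receptors was taken within each array, a comparison chosen after the values were seen. The gap of Notch2 over Notch1 was 0.83, 0.66 and 0.85 at P14, against 1.58, 1.52 and 1.14 at P2, and the groups did not overlap. The change in the gap was -0.63, with p = 0.10 in a two-sided exact permutation test, the smallest p that 3 against 3 arrays allow, and 0.20 adjusted over both gaps. The gap of Notch2 over Notch3 was 0.65, 0.59 and 0.90 at P14, against 1.42, 1.33 and 0.77 at P2. These groups overlapped, with a change of -0.46 and p = 0.20 in the exact permutation test. Since the test cannot give a p under 0.10 with these arrays, it cannot decide whether Notch2 changed differently from either paralog.

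Of the ligands 0 of 4 were called by limma in any pair of ages. Jag1, a Jagged ligand of endothelium and vessel wall, had 5.23, 5.28 and 5.66 at P2, 4.94, 4.66 and 5.23 at P7, and 4.86, 4.49 and 5.16 at P14. All its P14 arrays were below all its P2 arrays, and P7 reached into the P2 range. The log2 change for P14 minus P2 was -0.55 ± 0.21 (SE; 95% interval -1.01 to -0.09), with an unadjusted p of 0.0214 in the limma fit and an adjusted p = 0.122. Jag2, the other Jagged ligand, had 4.43, 4.48 and 5.12 at P2, 4.83, 4.40 and 4.53 at P7, and 5.10, 4.90 and 5.002 at P14. Its P14 arrays were above its P7 arrays, and P2 replicate 3 was above all of them. Its log2 change for P14 minus P2 was 0.32 (95% interval -0.11 to 0.76; adjusted p = 0.369 by limma).

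Dll4, the Delta-like ligand of arterial and sprouting endothelium, had 3.90, 4.55 and 4.47 at P2, 4.37, 4.22 and 4.65 at P7, and 4.56, 4.75 and 4.68 at P14. The lowest P14 array cleared the highest P2 array by under 0.01, and the log2 change of 0.35 had a 95% interval of -0.07 to 0.78 (limma adjusted p = 0.303). A further probe set that lists Dll4 together with Gm14207 was not used, and had means of 3.21, 3.39 and 3.66 at P2, P7 and P14. Dll1, the Delta-like ligand that muscle progenitors show to each other, was the dimmest member, with 4.12, 4.08 and 3.81 at P2, 4.16, 3.77 and 4.09 at P7, and 4.25, 3.97 and 4.37 at P14. The 3 ages overlapped in Dll1, and the change of 0.19 had a 95% interval of -0.20 to 0.58 (limma adjusted p = 0.577). The second Dll1 probe set was close to background, at 3.23, 3.44 and 3.40 for P2, P7 and P14.

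The targets had positive log2 changes for P14 minus P2 in 3 of 3 cases, and 0 of 3 were called by limma. Hes1, a repressor that many pathways besides Notch can induce, had 4.32, 4.01 and 4.07 at P2, 4.46, 4.42 and 4.13 at P7, and 5.27, 4.47 and 4.52 at P14. Its P14 arrays were above all arrays of both other ages, with replicate 1 far above the others. The log2 change for P14 minus P2 was 0.62 ± 0.22 (SE; 95% interval 0.16 to 1.08), at an unadjusted p of 0.0122 and an adjusted p = 0.0847 by limma. Without P14 replicate 1 it was 0.36 (adjusted p = 0.348).

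Hey1 and Heyl encode related repressors that together keep satellite cells undifferentiated in mice, and both are also found in vessels. Hey1 had 4.36, 4.23 and 4.79 at P2, 4.52, 4.16 and 4.43 at P7, and 4.46, 5.16 and 4.64 at P14. Its ages overlapped, and the change of 0.29 (95% interval -0.17 to 0.75; limma adjusted p = 0.451) was 0.09 without P14 replicate 2. Heyl had 4.16, 4.74 and 5.42 at P2, 5.37, 5.36 and 4.79 at P7, and 5.37, 4.89 and 5.45 at P14. Its pooled SD of 0.447 was the widest among the members, at the 95.2 percentile of all genes, and came mostly from P2, where the SD was 0.629. The change of 0.47 for P14 minus P2 (95% interval -0.13 to 1.06; limma adjusted p = 0.341) was 0.16 without P2 replicate 1 and 0.79 without P2 replicate 3, with adjusted p = 0.791 and 0.0651.

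**Figure D2:**
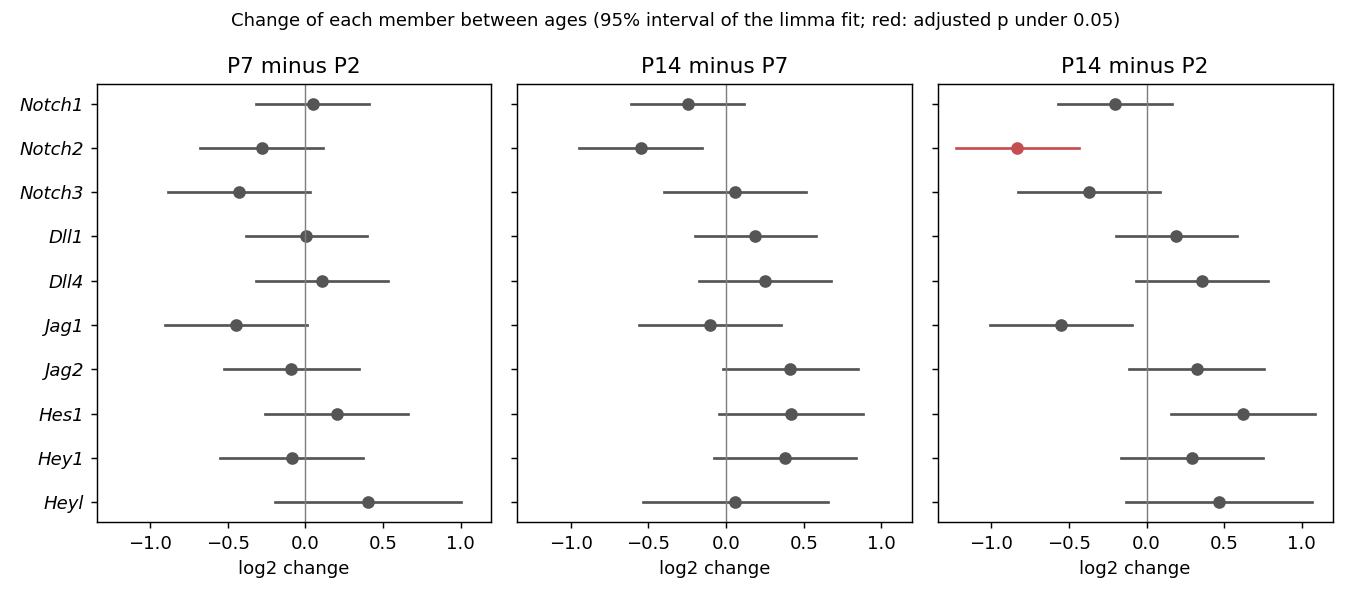
Log2 change (x axis) of each member for P7 minus P2, P14 minus P7 and P14 minus P2, with the 95% interval of the limma fit as a line and calls at an adjusted p under 0.05 in red. Notch2 for P14 minus P2, at -0.83, is the only call, and the intervals of Jag1 and Hes1 in that panel leave out 0 without passing the adjustment.

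Read against all genes, the members did not stand out in how many were called. All genes include dim ones, while every member was above background. Among the 14380 genes above background, fitted alone, 2886 were called for P14 minus P2, a larger share than that of all genes below. Notch2 was again the only member called there. For P7 minus P2 limma called 0 of 10 members, where 0.329% of all genes were called, and 0 had an unadjusted p under 0.05, against 12.8% of all genes. For P14 minus P7 it called 0 of 10, where 2.43% of all genes were called, and 1 had an unadjusted p under 0.05, against 14.6% of all genes. For P14 minus P2 it called 1 of 10, lower at P14, where 11.0% of all genes were called and 4.40% were called lower, and 3 had an unadjusted p under 0.05, against 24.3% of all genes. The F-test for any change over the ages called 1 member, Notch2 (adjusted p = 0.0268), where 8.24% of all genes were called, but it called 0 members without P2 replicate 1, P14 replicate 1 or P14 replicate 2. The difference between the intervals was called for 0 members, where 0.194% of all genes were called, and 0 had an unadjusted p under 0.05.

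The arrays of P14 and P2 did not overlap in 5 of the 10 members, where 28.7% of all genes had no overlap. Of the 5, Dll4 and Hes1 were higher at P14, as were 16.2% of all genes, and Notch2, Notch3 and Jag1 were lower, as were 12.6% of all genes. For P14 against P7 there was no overlap in 4 members, where 23.9% of all genes had none. Jag2 and Hes1 were higher at P14, as were 14.8% of all genes, and Notch1 and Notch2 were lower, as were 9.13% of all genes. For P7 against P2 all 10 members overlapped, where 15.2% of all genes did not. The median log2 change of the members for P14 minus P2 was 0.24, against 0.01 for all genes and 0.07 for the 14380 genes above background. Of the 10 members 9 lay within the 5th to 95th percentiles of all genes, from -0.64 to 0.74. The exception was Notch2. The receptors had a median of -0.37, the ligands 0.26 and the targets 0.46 in that comparison, groups of 3 or 4 genes for which no test was made.

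The profile of Notch2 over the 9 arrays was most like those of Plekhh2, Celf2 and Asxl1, among 10558 brighter named genes, with Pearson r of 0.974, 0.971 and 0.969. Celf2 encodes an RNA-binding splicing regulator and Asxl1 a chromatin protein. Their log2 changes for P14 minus P2 were -0.84 for Plekhh2, -0.66 for Celf2 and -0.62 for Asxl1, with limma adjusted p = 0.00876, 0.0141 and 0.0481. All 9 points share the division into ages, and these genes were picked for likeness, so the coefficients are descriptions.

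Some arrays were the highest or lowest of their age in many members, a count that was not made over all genes. At P2 replicate 3 had the highest value in 6 of the 10 members, Notch1, Notch3, Jag1, Jag2, Hey1 and Heyl, and a median deviation of 0.25 from the mean of its age, against 0.03 for all genes. At P7 replicate 2 was lowest in 7 members and highest in 0, with a median deviation of -0.20, against -0.01 for all genes. Replicate 1 of P7 was highest in 8, with a median deviation of 0.15, against 0.02. At P14 replicate 3 was highest in 6 members (median deviation 0.11, against -0.005 for all genes). Replicate 2 of P14 was lowest in 7 (-0.13, against 0.001). The pooled SD within an age was 0.157 to 0.447 for the members, and its median over all genes was 0.237.

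**Figure D3:**
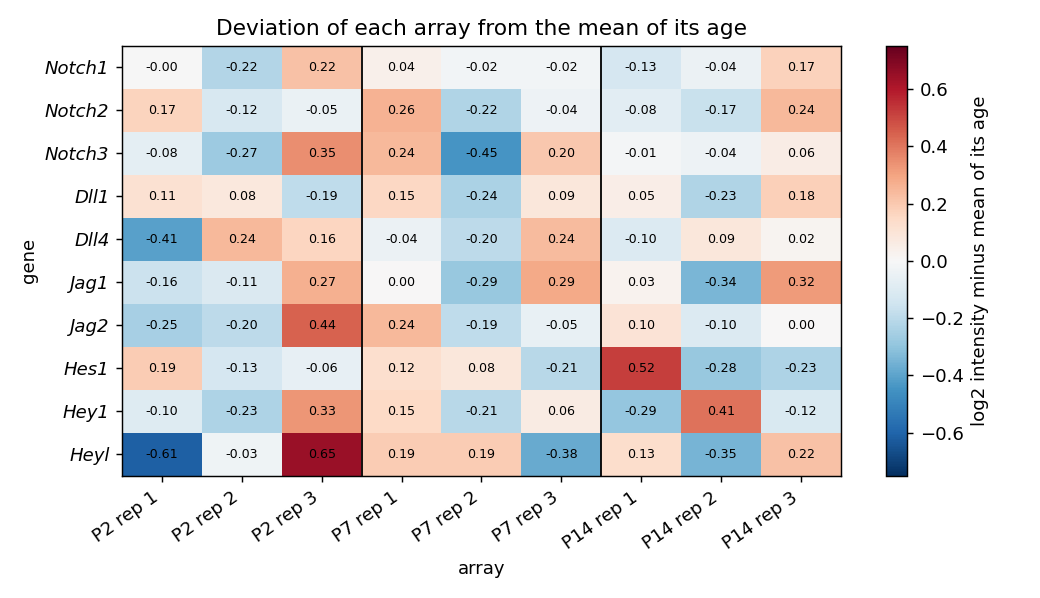
Log2 intensity of each array minus the mean of its age (colour and printed value) for the 10 members (rows) over the 9 arrays (columns). P2 replicate 3 is above its age mean in 7 members, by up to 0.65 in Heyl, and P7 replicate 2 is below it in 8, down to -0.45 in Notch3.

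In whole muscle, fewer cells of a type and less RNA per cell cannot be told apart, so levels of marker lists are given beside these values. The lists hold no member. Each sum adds linear intensities, so it is weighted towards the brightest genes of its list and is not an even level of all its markers. At P14 the brightest were Cdh5 (8.41) of the endothelial, Rgs5 (9.83) of the pericyte, Myog (6.63) of the satellite cell and Dcn (10.1) of the fibro-adipogenic list. The summed intensity of 10 endothelial markers was 9.05, 9.15 and 9.72 at P2 on the log2 scale, with P2 replicate 3 the highest, as it also was in the pericyte, satellite cell, fibro-adipogenic, Schwann, macrophage and dividing cell lists. The endothelial sum was 9.75 to 9.90 at P14, against 9.05 to 9.72 at P2, with 2 of 10 markers higher by limma (Esam and Robo4) and 0 lower. Changes were positive in 9 of 10, and Cldn5 was at -0.29, not called. For P14 minus P2 limma called 6.63% of all genes higher and 4.40% lower. Among the 14380 genes above background, fitted alone, it called 2886 in either direction. The pericyte and smooth muscle sum was 11.2 to 11.3 at P14, against 10.2 to 10.5 at P2, with 4 of 10 higher and 0 lower. Its clearest riser, Rgs5, was 3.95-fold higher at P14 (adjusted p = 0.000355). The list did not rise as a whole, since 3 of 10 changes were negative, though not called. They were Cspg4 at -0.48, Mcam at -0.42 and Myh11 at -0.24. In Cspg4 and Myh11 all P14 arrays were below all P2 arrays. One marker of this list, Higd1b, was below the background measure.

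Dividing cell markers fell over the same span as Notch2. Their sum was 7.16 to 7.45 at P14, against 8.26 to 8.94 at P2, and 8 of 9 measured markers were lower by limma. Satellite cell and myoblast markers summed to 8.17 to 8.40 at P14, against 8.39 to 8.57 at P2. By limma 3 of 10 were lower, Myf5, Cdh15 and Fgfr4, and 0 were higher, but the list was split. Changes were positive in 4 of 10, with Pax3 at 0.65 (limma adjusted p = 0.0518) and Myod1 at 0.57 (adjusted p = 0.0831). Pax3 was under the background measure at P2 (2.97). The fibro-adipogenic sum was 10.6 to 10.8 at P14, against 10.3 to 10.9 at P2, with Pdgfra alone of 5 measured markers lower. The Schwann sum was 5.80 to 6.03 at P14, against 6.13 to 6.52 at P2, with 0 of 4 markers called by limma (1 at an unadjusted p under 0.05). The macrophage sum was 7.99 to 8.04 at P14, against 7.83 to 8.46 at P2, with 0 of 6 called (1 at an unadjusted p under 0.05). The fibre sum was 13.96 to 14.03 at P14, against 13.4 to 13.5 at P2, with 3 of 6 higher. Counts of called markers are to be read against the shares of all genes given above. The part of these lists in the fall of Notch2 was not tested.

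**Figure D4:**
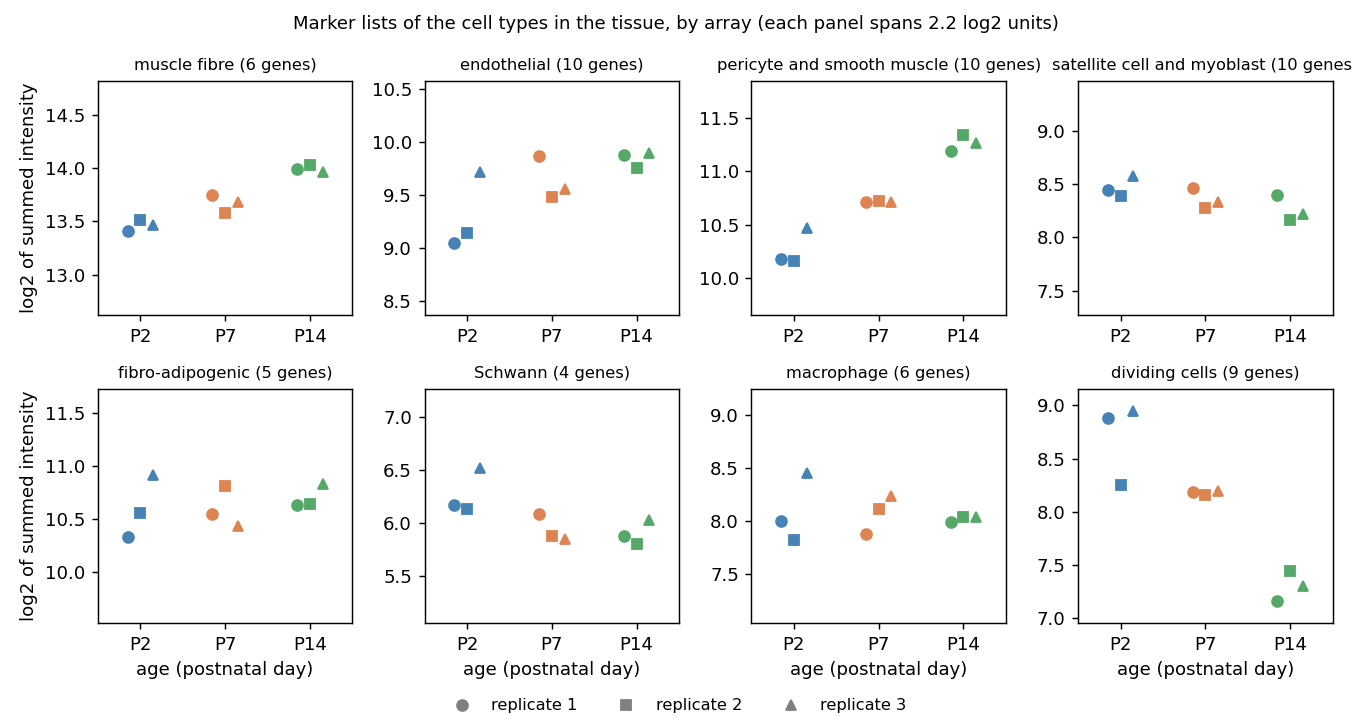
Log2 of the summed intensity (y axis) of 8 marker lists on each array at P2, P7 and P14 (x axis), with 1 point per array and the same height of axis in each panel. The sums of the endothelial, pericyte and fibre lists are higher at P14 than at P2 on every array, the endothelial sum narrowly (lowest P14 9.75, highest P2 9.72). Those of the Schwann and dividing cell lists are lower on every array. P2 replicate 3 is the highest P2 array in every list but that of the fibres.

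Of 53 other genes of the pathway 50 were measured, and few were called. For P14 minus P2 limma called 3 of 50, 2 higher and 1 lower, where 6.63% of all genes were called higher and 4.40% lower. Their median log2 change was 0.06, against 0.01 for all genes and 0.07 for the 14380 genes above background. For P14 minus P7 it called 1 lower (Dlk1), where 0.703% of all genes were called lower. For P7 minus P2 it called 0, where 0.329% of all genes were called. An unadjusted p under 0.05 was found in 7 of 50 for P14 minus P2, against 24.3% of all genes. It was found in 3 of 50 for P14 minus P7, against 14.6%, and in 1 of 50 for P7 minus P2, against 12.8%. Counts by role below are to be read against the same shares.

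Dlk1, an imprinted Delta-like protein without the domain that binds Notch in other ligands, was 6.92-fold lower at P14 than at P2 (5.69 ± 0.12 at P14 and 8.48 ± 0.15 at P2, SD, n = 3 each; log2 change -2.79 ± 0.17, SE; limma adjusted p = 3.33e-07). The other 5 genes in its group, the receptor Notch4 and the ligand-like Dll3, Dlk2, Dner and Cntn1, were not called, with changes of 0.06 to 0.34. The largest changes were those of Dll3 and Dner, which were dim. Dll3 was under the background measure at every age (2.51, 2.83 and 2.84). Dner was under it at P2 (2.92) and close to it at P7 and P14 (3.23 and 3.26). Neurl1a, a ubiquitin ligase of the Neuralized family that acts on Notch ligands, had 5.82, 5.25 and 5.52 at P14, against 4.37, 4.87 and 4.51 at P2. Its groups did not overlap, and it rose 1.92-fold (log2 0.94 ± 0.19, SE; adjusted p = 0.00572). The other 3 genes of ligand endocytosis, among them Mib1 at -0.19, were not called. Kat2b, a histone acetyltransferase that works with many activators, had 5.75, 5.71 and 5.92 at P14, against 4.95, 5.46 and 5.01 at P2. It rose 1.57-fold (log2 0.65 ± 0.18, SE; adjusted p = 0.0263), but lost the call without P2 replicate 1 or 3 or any P14 array (adjusted p up to 0.112).

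Most genes that carry the signal from receptor to nucleus were not called for any pair of ages. Rbpj itself had a log2 change of -0.26 for P14 minus P2 (adjusted p = 0.492), and the mastermind coactivators Maml1, Maml2 and Maml3 had 0.14, -0.13 and -0.17. The 9 genes of the nuclear complex ranged from -0.26 to 0.65, with Kat2b called and 2 at an unadjusted p under 0.05. The other of these 2 was Snw1, a nuclear cofactor of Rbpj, at 0.61 without overlap between P14 and P2 (adjusted p = 0.0507), which was called under 4 alternatives. The protease Adam10 was at -0.07 and Adam17 at 0.20, and the 7 measured genes of cleavage ranged from -0.14 to 0.52 with 0 called (1 at an unadjusted p under 0.05). The 5 sugar transferases that tune receptors ranged from -0.48 for Lfng to 0.34 for Poglut1 (0 called, 1 at an unadjusted p under 0.05), and the 6 measured corepressors from -0.61 for Hdac1 to 0.18 for Tle1 (0 called, 1 at an unadjusted p under 0.05). Among 9 genes of inhibition and turnover, which include Numb at 0.10, the range was -0.42 to 0.41 (0 called and 0 at an unadjusted p under 0.05). The 4 other targets Hes5, Hes6, Hes7 and Hey2 ranged from -0.27 to -0.06, with 0 called and 0 at an unadjusted p under 0.05, and genes in these groups other than Kat2b were named after their values were seen.

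**Figure D5:**
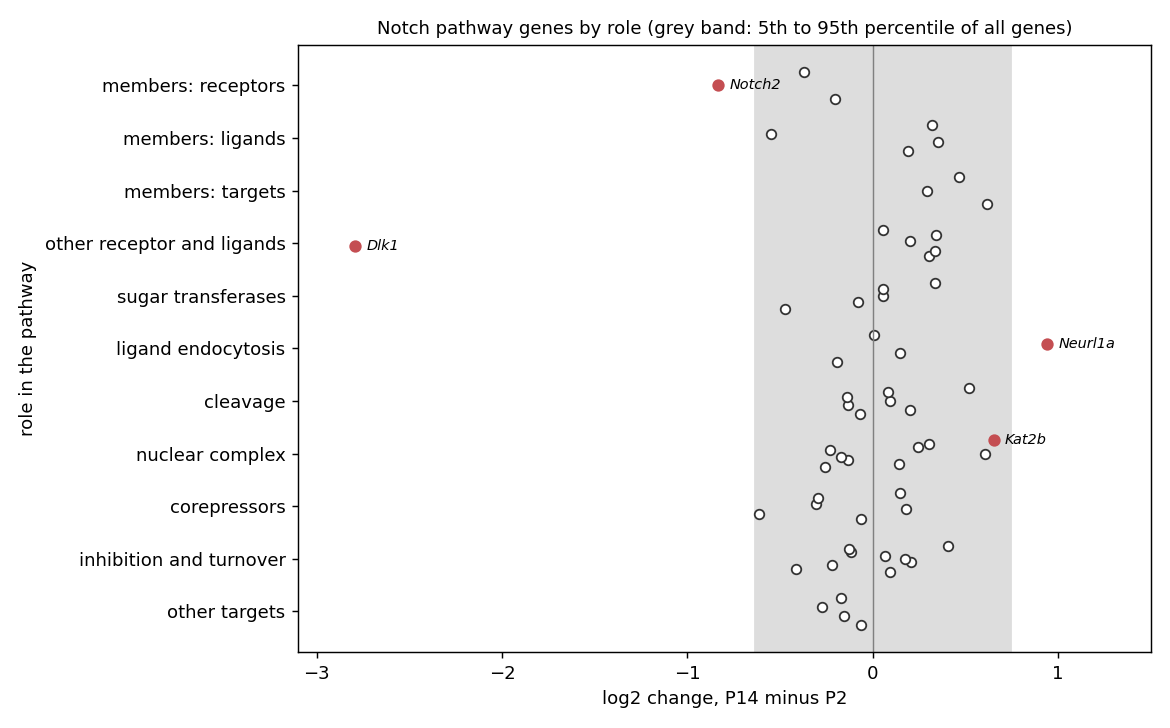
Log2 change for P14 minus P2 (x axis) of the 10 members and 50 other pathway genes, 1 point per gene in rows by role, with calls at an adjusted p under 0.05 filled in red and the 5th to 95th percentile of all genes in grey. The calls are Notch2 at -0.83, Dlk1 at -2.79, Neurl1a at 0.94 and Kat2b at 0.65.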

How the data were processed

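Hindlimb muscle RNA of 9 samples, 3 at each of P2, P7 and P14, was measured on 1-colour arrays. The deposited table gives log2 intensities for 41345 probe sets, made by the authors with RMA and Partek (per the submitters' processing notes, which give neither versions nor settings). The log2 scale is inferred from RMA. The probe sets' genome build was not given in the sources used here.

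Of the probe sets, 23521 carry 1 symbol, 1814 carry several and 16010 are not listed in the annotation used. Symbols were updated by Entrez number for 23328, and the brightest probe set per gene was kept (22180 genes, no filter on dim genes). One mean per age was fitted with limma 3.58.1 (R 4.3.3, lmFit and eBayes) over all 9 arrays, with two-sided tests, Benjamini-Hochberg adjustment over all genes and a call at an adjusted p under 0.05. The script was tested on simulated data with independent noise for P14 versus P2 over 22180 genes. Of 100 genes changed by 1 log2 unit 58 were called, and of 100 changed by 2 units 95 were called. No other gene was changed, and 8 of the unchanged genes were called. In the real data 2447 genes were called, so the adjustment is less strict there. The simulated shares therefore check the script and are not the sensitivity for the members.

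The members, pathway and marker lists were chosen with earlier results of these data known. Named genes are all members, pathway genes called in a pair of ages, and the 3 genes most correlated with each member called by the F-test, among genes brighter than the median. Alternatives were the probe set summary, scaling (median, quantile, cyclic loess), a filter on dim genes, pairs of ages only, trended variance, array weights, the level of Xist, a female-specific transcript, as a covariate (sex is not in the labels), a replicate block and each array left out.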

Additional observations from a re-analysis of the deposited data

How the results depend on the processing

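Under 19 alternatives the log2 change of each of the 10 members for P14 minus P2 kept its sign, as did 22 of the 30 member changes over the 3 pairs of ages, and no member other than Notch2 was called for any pair. Notch2 for P14 minus P2 ranged from -0.96 (cyclic loess) to -0.75 and was called in 18 of 19, lost only without P14 replicate 2. With 1 array left out, the count of members called was 0 to 1 for P14 minus P2 and 0 to 1 for any change over the ages. The count of other pathway genes called for P7 minus P2, which was 0, became 1 (Dlk1) with arrays centred on the median, quantile normalization, cyclic loess, genes above background only, or trended variance, and was 0 to 1 with 1 array left out. That for P14 minus P2, which was 3, was 2 to 4: Snw1 was added with the mean of all probe sets, genes above background only, trended variance or without P7 replicate 1, and Nrarp was called in place of Kat2b without P2 replicate 3. That for P14 minus P7, which was 1, became 2 with array weights (Neurl1a added), and that for any change over the ages was 1 to 3 with 1 array left out, against 2. Kat2b was called for P14 minus P2 in 12 of 19 alternatives and lost its call with quantile normalization (adjusted p = 0.0755), with cyclic loess (0.0714), and without P2 replicate 1, P2 replicate 3 or any 1 of the P14 replicates (up to 0.112). The cause was not tested. No sign was seen that replicate numbers pair the samples. Deviations of same-numbered arrays of different ages correlated at -0.029 to 0.057, and those of differently numbered arrays at -0.082 to 0.106. These correlations cannot exclude a link between same-numbered samples. With the replicate block Notch2 had a limma adjusted p = 0.0114 for P14 minus P2, and no member count changed. Over all alternatives the number of genes called among all genes was 11 to 206 for P7 minus P2 (73 as reported), 214 to 1221 for P14 minus P7 (538), 1373 to 2886 for P14 minus P2 (2447), 845 to 2232 for the F-test (1827) and 18 to 53 for the difference between intervals (43).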
